A study of Mus musculus with 6 samples.

Results

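A set of 10 genes that encode heat shock proteins and chaperones was followed in bulk RNA sequencing of the mouse cerebellum and taken by name from the 31053 genes of the count table. They are the inducible HSP70 genes Hspa1a and Hspa1b, the constitutive HSP70 gene Hspa8, their J-domain partner Dnajb1, the HSP90 genes Hsp90aa1 and Hsp90ab1, the endoplasmic reticulum HSP70 gene Hspa5, and the mitochondrial chaperone genes Hspa9, Hspd1 and Hspe1. The genotypes compared were wild-type (WT) mice and knock-in knock-out (KIKO) mice, a model of Friedreich ataxia. The KIKO mice are constitutive mutants, which carry their alleles in every tissue, and the WT mice were described as their littermates. The labels give the tissue as cerebellum and the genotype, and give no age, sex, treatment or cell sorting. The paper describes bulk sequencing of CD45+/CD11b+ cells sorted from the cerebellum, so whether these libraries come from sorted cells or from tissue is unsettled. Each deposited table also holds columns whose names combine KIKO and butyrate and which fit no label, and the paper includes butyrate experiments, so which of its experiments the WT and KIKO libraries belong to is unsettled as well. There were 2 WT libraries and 3 KIKO libraries, and each is called by its genotype and replicate number. WT replicate 3 was not analysed here.

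Heat shock proteins bind unfolded or partly folded proteins and keep them from aggregating. HSP70 proteins work in cycles of ATP hydrolysis in which a J-domain protein delivers the client and a nucleotide exchange factor releases it, and HSP90 completes the folding of kinases and nuclear receptors. Heat shock factor 1 switches on the inducible members by binding heat shock elements near their start sites, whereas accumulating unfolded proteins in the endoplasmic reticulum switch on Hspa5 through a separate element. In brain tissue the inducible HSP70 genes also respond to the handling of cells, as do immediate-early genes, so the latter were followed beside them.

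Each library held between 1013107 and 1351339 counts, and 3 counts, taken as the floor, corresponded to a normalized level between 2.28 and 3.04 CPM, the count scaled by library size and a composition factor (TMM). This floor covers counting error only. Levels below are on this CPM scale, and all 10 genes passed the filter that left 10889 genes tested. KIKO replicate 2 stood apart from the other 4 libraries. Its log2 CPM correlated with theirs across genes at r between 0.631 and 0.706, while the other 4 correlated with each other at r between 0.865 and 0.918. The genotype differences are therefore also given without it. All 44 cell type markers of 11 lists were detected in every library, and the 4 neuron markers summed to between 9032 and 27407 CPM against between 3165 and 9319 CPM for the 6 microglia markers. The larger neuron sum rests on the RNA Meg3, with 22611 and 25589 counts in WT and 26840, 10065 and 23836 counts in KIKO. Snap25, Syt1 and Rbfox3 each had between 332 and 1698 counts. In bulk libraries, fewer cells of a type and less RNA per cell cannot be told apart.

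The inducible pair shares nearly all of the sequence just before its start sites. The windows of 250 bases before the start sites of Hspa1a (GRCm38, chr17:34972157-34972406, minus strand) and Hspa1b (chr17:34959239-34959488, minus strand) are printed from RefSeq with a heat shock element match in capitals.
Hspa1a: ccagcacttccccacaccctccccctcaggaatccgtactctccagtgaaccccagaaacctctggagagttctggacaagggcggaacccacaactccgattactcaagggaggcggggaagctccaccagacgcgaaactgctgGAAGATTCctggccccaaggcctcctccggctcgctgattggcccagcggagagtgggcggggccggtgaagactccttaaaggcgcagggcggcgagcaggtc
Hspa1b: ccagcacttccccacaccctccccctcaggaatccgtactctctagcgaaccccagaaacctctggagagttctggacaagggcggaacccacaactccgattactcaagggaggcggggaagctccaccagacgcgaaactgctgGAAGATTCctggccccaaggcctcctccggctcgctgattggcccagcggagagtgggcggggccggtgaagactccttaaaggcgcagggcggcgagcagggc
The windows matched at 247 of 250 positions (98.8%), and each held 1 match, GAAGATTC, which began 104 bases before the start. The motif searched was GAANNTTC or TTCNNGAA on both strands, with overlapping matches counted, and 12.84% of 32851 windows of this length held at least 1. The 2 stretches of 30 bases were chosen because they hold the matches of the other stress-responsive members. Hspe1 and Hspd1 lie head to head, and the stretch at chr1:55088053-55088082, printed on the Hspe1 strand, held 3 overlapping matches, marked in capitals. It lies inside the annotated Hspd1 gene, ahead of the RefSeq start of Hspe1 and of 1 of the 2 RefSeq starts of Hspd1, and the window before the other Hspd1 start held no match. The Hspa5 stretch (chr2:34772020-34772049, plus strand) held 1 match to the endoplasmic reticulum stress element (CCAAT, any 9 bases and CCACG, searched on both strands), marked in capitals and found in 37 of the 32851 windows (0.113%). That stretch lies inside the annotated Hspa5 gene, ahead of the RefSeq start.
Hspe1: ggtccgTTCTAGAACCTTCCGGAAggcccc
Hspa5: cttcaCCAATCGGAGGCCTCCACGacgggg
At least 2 heat shock element matches were held by 1.455% of the windows. The Dnajb1 windows, which held 47 and 245 bases of annotated exon, had no match to these letters. No window was given for Hspa8, Hspa9, Hsp90aa1 and Hsp90ab1. A match is a description of the letters and not of a bound site.

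The inducible HSP70 genes were the most variable of the 10 between libraries and did not differ by genotype beyond that spread. Hspa1a (chr17:34969190-34972156, 1 exon) encodes a cytosolic HSP70 and had 2075 and 3261 CPM in WT replicates 1 and 2 and 1972, 4078 and 1381 CPM in KIKO replicates 1, 2 and 3. Its highest and lowest libraries were both KIKO, 2.95-fold apart, and the WT libraries lay between them. The means were 2668 ± 838 CPM (SD, n = 2) and 2477 ± 1418 CPM (SD, n = 3), and the log2 fold change of KIKO against WT was −0.11 (SE 0.57, 95% interval −1.40 to 1.19). Hspa1b (chr17:34956436-34959238, 1 exon) encodes a near-identical protein and had 1515 and 2293 CPM in WT and 1562, 4014 and 782.4 CPM in KIKO. Again both extremes were KIKO libraries, here 5.13-fold apart. Its means were 1904 ± 550 CPM (SD, n = 2) and 2120 ± 1687 CPM (SD, n = 3), with a log2 fold change of 0.15 (SE 0.68, 95% interval −1.39 to 1.70).

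Reads of the pair could be split or lost between the 2 copies. Their coding sequences matched at 1915 of 1926 aligned positions (99.43%), and 75.45% of the 75-base windows of the Hspa1a coding sequence occurred unchanged in Hspa1b, while 0 of 739 windows after the coding sequence did. How the authors counted reads with more than 1 alignment is not given in the sources used here, so the values of each copy are uncertain and the sum was also tested. In addition, 564 bases of Hspa1a overlap Gm20481 on the opposite strand. The summed level was 3590 and 5554 CPM in WT and 3534, 8090 and 2164 CPM in KIKO. KIKO replicate 2 was highest, KIKO replicate 3 was lowest, and both WT libraries lay inside that span. The log2 fold change of the sum was 0.01 (SE 0.64, 95% interval −1.45 to 1.46, unadjusted p = 0.991, edgeR's quasi-likelihood test). The pair took 0.345% and 0.542% of all counts in the WT libraries and 0.350%, 0.843% and 0.210% in the KIKO libraries.

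**Figure D1:**
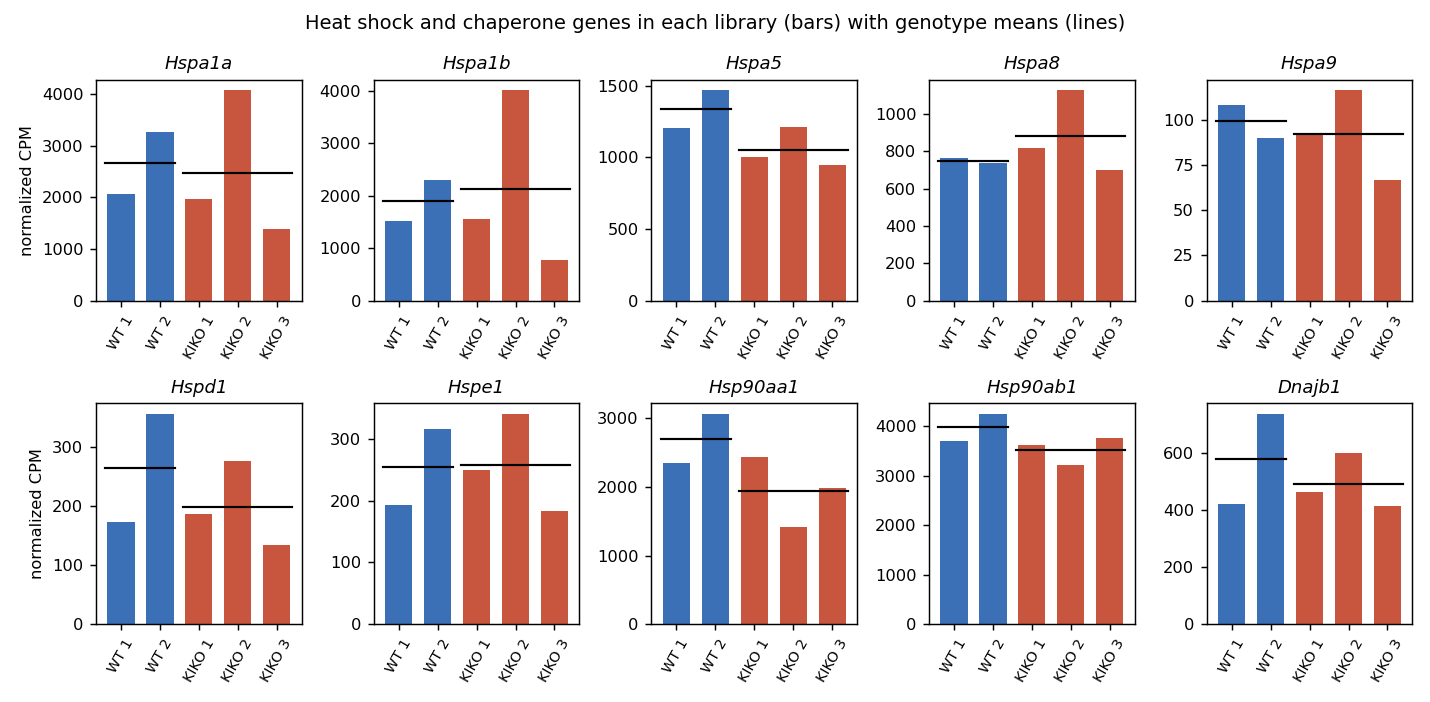
Normalized CPM of each of the 10 genes in the 5 libraries (bars) with the mean of each genotype (lines). The bars of Hspa1a and Hspa1b run highest in KIKO replicate 2 and lowest in KIKO replicate 3, with the WT libraries between.

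The other cytosolic HSP70 members also overlapped between genotypes. Dnajb1 (chr8:83608193-83612653), whose product stimulates the ATPase of HSP70, had 422.4 and 735.7 CPM in WT and 462.9, 598.1 and 413.0 CPM in KIKO. WT replicate 2 was highest, followed by KIKO replicate 2, and WT replicate 1 lay within the KIKO range. The log2 fold change was −0.24 (SE 0.41, 95% interval −1.18 to 0.70). Hspa8 (chr9:40800984-40810087), the HSP70 that cells make without stress, had 763.0 and 736.5 CPM in WT and 816.2, 1128 and 698.2 CPM in KIKO. The WT libraries were nearly level and KIKO replicate 2 was the highest, with KIKO replicate 3 below both WT libraries. The log2 fold change was 0.23 (SE 0.40, 95% interval −0.69 to 1.15). The 3 small nucleolar RNA genes Snord14c, Snord14d and Snord14e lie within its exons on the same strand.

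The HSP90 genes departed from the HSP70 genes in KIKO replicate 2. Hsp90aa1 (chr12:110690605-110702728), the more inducible HSP90, had 2346 and 3062 CPM in WT and 2431, 1417 and 1981 CPM in KIKO. KIKO replicate 2, where Hspa1a and Hspa1b were highest, was here the lowest, and KIKO replicate 1 lay between the WT libraries. The means were 2704 ± 506 CPM (SD, n = 2) and 1943 ± 508 CPM (SD, n = 3), a log2 fold change of −0.48 (SE 0.45, 95% interval −1.50 to 0.54). Hsp90ab1 (chr17:45567775-45573271), the constitutive HSP90, had 3700 and 4242 CPM in WT and 3607, 3206 and 3751 CPM in KIKO. It varied least of the 10 genes, KIKO replicate 3 lay above WT replicate 1, and its log2 fold change was −0.17 (SE 0.44, 95% interval −1.18 to 0.83).

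Hspa5 (chr2:34771970-34777547) encodes BiP, the HSP70 of the endoplasmic reticulum that also holds the sensors of unfolded protein inactive. It had 1202 and 1469 CPM in WT and 1001, 1213 and 945.8 CPM in KIKO. WT replicate 2 was the highest library, and KIKO replicate 2 overlapped the WT range from just above WT replicate 1. The means were 1336 ± 189 CPM (SD, n = 2) and 1053 ± 141 CPM (SD, n = 3), with a log2 fold change of −0.34 (SE 0.39, 95% interval −1.23 to 0.55).

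None of the mitochondrial members differed by genotype beyond its spread. Hspa9 (chromosome 18), the mitochondrial HSP70 mortalin that acts in protein import and iron-sulfur cluster transfer, had 108.6 and 90.3 CPM in WT and 93.1, 116.7 and 67.0 CPM in KIKO. KIKO replicate 2 was highest and KIKO replicate 3 lowest, with a log2 fold change of −0.10 (SE 0.39, 95% interval −0.99 to 0.78). Hspd1 (chr1:55077835-55088243) encodes the chaperonin HSP60 and had 173.3 and 356.5 CPM in WT and 187.7, 276.6 and 133.9 CPM in KIKO. The WT libraries were farther apart, relative to their mean, than for any other of the 10 members, and every KIKO library except replicate 3 lay between them. Its log2 fold change was −0.41 (SE 0.46, 95% interval −1.47 to 0.65). Hspe1 (chr1:55088132-55091307) encodes HSP10, the lid of that chaperonin, and had 192.3 and 316.3 CPM in WT and 249.998, 340.0 and 183.7 CPM in KIKO. Both extremes were KIKO libraries, and its log2 fold change was 0.02 (SE 0.42, 95% interval −0.95 to 0.99). The exons of Hspd1 and Hspe1 overlap by 112 bases on opposite strands, and the strand setting of the counting is not given in the sources used here.

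Per kilobase of exon, Hsp90ab1 was the most abundant member, with between 1069 and 1415 CPM per kb over the 5 libraries. Hspa1a followed at between 465.5 and 1374 CPM per kb, Hspa1b at between 279.1 and 1432 and Hsp90aa1 at between 360.5 and 778.9, so the ranges of these 3 neighbours overlapped each other, and those of Hspa1a and Hspa1b also reached into that of Hsp90ab1. Hspa5 came next, with a mean of 275.8 CPM per kb. Hspa8, Hspe1 and Dnajb1 had overlapping ranges and means of 192.6, 174.0 and 164.3 CPM per kb. Hspd1 had a mean of 85.4, and Hspa9, between 15.5 and 27.1 CPM per kb, was lowest in every library. This scale assumes reads from the whole transcript. The labels name a stranded kit and the paper a digital mRNA protocol, so the assumption is unsettled.

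None of the 10 genes passed the cut-offs applied here, a log2 fold change beyond 0.75 either way and an unadjusted p below 0.05, against 1.2% of the 10889 genes tested (0.716% higher and 0.487% lower in KIKO). The study used these values and does not say whether its p was adjusted. DESeq2 called none of the 10 either. Each had an adjusted p of 1 by edgeR's quasi-likelihood test with Benjamini-Hochberg adjustment, and over all genes 0 had an adjusted p under 0.05, while 131 had an unadjusted p under 0.05 (1.2%). DESeq2 gave 0 genes with an adjusted p under 0.05 and 173 of 16822 past the cut-offs (1.03%). The unadjusted p of the members ran from 0.315 for Hsp90aa1 to 0.963 for Hspe1. For all 10 genes the WT and KIKO libraries overlapped, whereas they did not for 16.7% of the genes tested (8.2% with KIKO higher and 8.51% with KIKO lower). With 2 libraries against 3, an exact permutation test of a single gene cannot go below p = 0.1. The intervals all spanned 0, and the narrowest, that of Hspa9, ran from −0.99 to 0.78. The median log2 fold change was −0.14, with 3 of 10 positive, beside 0.022 over all genes tested. The labels do not say whether the replicates were separate mice, and the p-values then measure only the spread between these libraries, which may be technical.

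**Figure D2:**
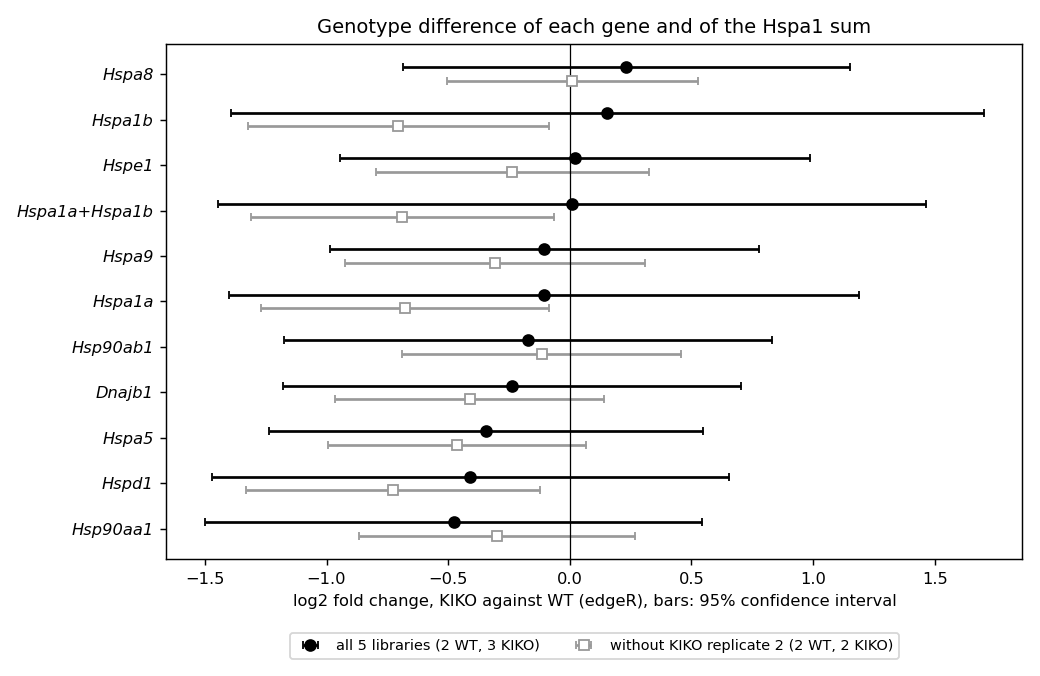
Log2 fold change of KIKO against WT with its 95% confidence interval for each gene and for the sum of Hspa1a and Hspa1b, from all 5 libraries (black circles) and without KIKO replicate 2 (open squares). All black intervals cross 0, and the open squares of Hspa1a, Hspa1b, their sum and Hspd1 lie below 0 with their intervals.

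Without KIKO replicate 2, 9 of the 10 genes were lower in KIKO, beside 50.9% of all genes. The biological coefficient of variation between libraries of a genotype, estimated by edgeR in common for all genes, fell from 0.468 to 0.238. The median log2 fold change of the 10 genes was then −0.359. In that fit, edgeR's quasi-likelihood test gave 3 of the 10 an unadjusted p below 0.05, all lower in KIKO, against 8.21% of the 10373 genes tested (4.47% lower). Hspd1 had a log2 fold change of −0.73 (unadjusted p = 0.020), Hspa1a of −0.68 (unadjusted p = 0.0266) and Hspa1b of −0.70 (unadjusted p = 0.0272). Their adjusted p lay between 0.532 and 0.543, so none passed the correction, and none passed both cut-offs, which 6.45% of those genes did. KIKO replicate 1 still lay above WT replicate 1 for Hspd1 (187.7 against 173.3 CPM) and Hspa1b (1562 against 1515 CPM). For Hspa1a it lay just below, at 1972 against 2075 CPM. On average the 10 members deviated alike in KIKO replicate 1 and WT replicate 1, by −0.084 and −0.106 from the mean of all 5 libraries on the log2 scale. The sum of Hspa1a and Hspa1b had a log2 fold change of −0.69 (95% interval −1.31 to −0.07, adjusted p = 0.555 by edgeR). Hspa8 was the exception, at 0.01 (95% interval −0.51 to 0.53). Hspa5 was at −0.46 (−0.99 to 0.07), Dnajb1 at −0.41 (−0.96 to 0.14), Hspa9 at −0.31 (−0.93 to 0.31) and Hspe1 at −0.24 (−0.80 to 0.32). The HSP90 genes moved toward 0, with Hsp90aa1 at −0.30 (−0.87 to 0.27) and Hsp90ab1 at −0.12 (−0.69 to 0.46). Why this library differs was not tested.

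Within a library the scaling cancels, so the shares of 2 members were compared as well, without a test. Hspa1b made up 42.2% and 41.3% of the counts of the inducible pair in WT and 44.2%, 49.6% and 36.2% in KIKO. Exact binomial intervals, which cover counting error only, ran from 48.6% to 50.6% in KIKO replicate 2 and from 34.1% to 38.2% in KIKO replicate 3, so the libraries with more of the pair also held more of it as Hspa1b at these extremes. Hsp90aa1 made up 38.8% and 41.9% of the HSP90 counts in WT and 40.3%, 30.7% and 34.6% in KIKO, lowest again in KIKO replicate 2 and overlapping between genotypes.

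The other pairs did not overlap between genotypes. Hspd1 made up 47.4% and 53.0% of the counts of the chaperonin and its lid in WT, and 42.9%, 44.9% and 42.2% in KIKO, all below WT, although the counting intervals of WT replicate 1 and the KIKO libraries overlapped. Hspa8 made up 38.8% and 33.4% of the counts of Hspa8 and Hspa5 in WT, and 44.9%, 48.2% and 42.5% in KIKO, all above WT. Neither rests on KIKO replicate 2, since the other KIKO libraries lie on the same side of WT. In all, 2 of the 4 pairs described here did not overlap. Of all pairs among the 2086 genes with at least the mean level of Hspa9, 16.2% did not overlap between genotypes.

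**Figure D3:**
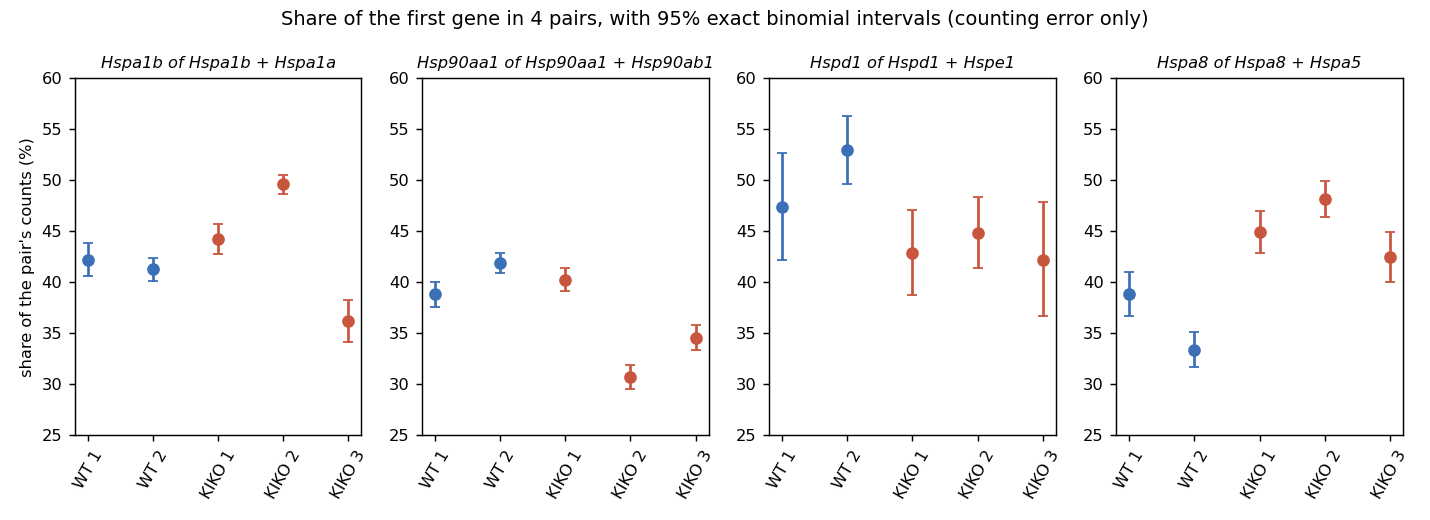
Share of the first gene in the counts of 4 pairs, in percent, in each library, with exact binomial intervals of 95% (counting error only). The share of Hspa8 lies between 42.5% and 48.2% in KIKO and at 33.4% and 38.8% in WT.

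The inducible genes had the widest spans over all 5 libraries among the 10 members. Hspa1b spanned 2.36 on the log2 scale, wider than 42 of the 46 other genes within 2-fold of its mean level, and Hspa1a spanned 1.56, wider than 20 of 33 such genes. Without KIKO replicate 2 the spans were 1.55 and 1.24, wider than 45 of 46 and 29 of 33. Hspd1, at 1.41 with and without that library, was wider than 69.5% of 1431 genes of its level, and then than 97.6%. Hsp90ab1 spanned 0.40, less than each of the 20 genes of its level, and 0.23 without KIKO replicate 2, wider than 2 of them. These sets of genes were chosen after the values were seen. KIKO replicate 2 held the highest value for 5 members and WT replicate 2 for the other 5. KIKO replicate 3 held the lowest for 8 and KIKO replicate 2 for 2. Over all genes tested, KIKO replicate 2 was highest for 33.9% and lowest for 37.1%. Such shares were not counted for WT replicate 2 and KIKO replicate 3, so these positions may be general to the libraries. On average, the members lay 0.33 above their own means in WT replicate 2, 0.31 above in KIKO replicate 2 and 0.45 below in KIKO replicate 3, on the log2 scale.

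**Figure D4:**
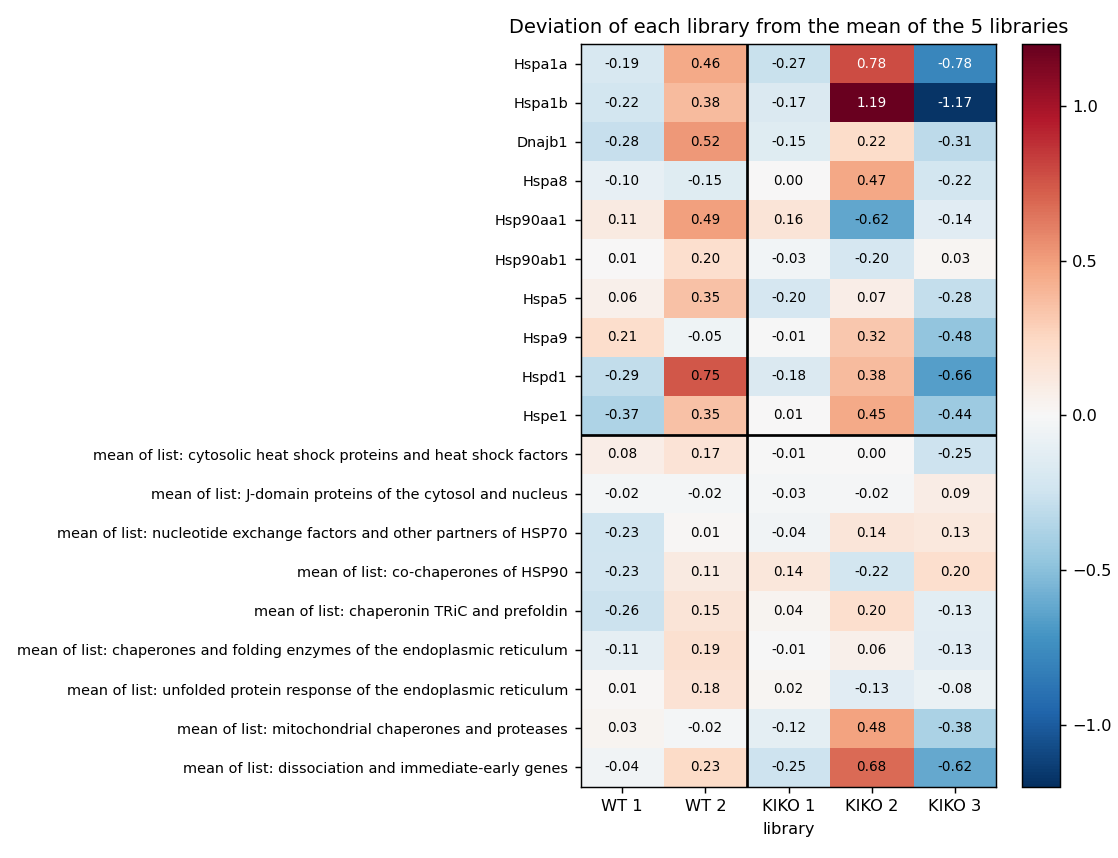
Deviation of each library from the mean of the 5 libraries, on the log2 CPM scale, for each member (upper block) and for the mean of each gene list (lower block). KIKO replicate 2 and WT replicate 2 run above the mean and KIKO replicate 3 below it for most members, while Hsp90aa1 is lowest in KIKO replicate 2.

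Other measures of the same libraries moved with the inducible genes. The order of the libraries by the summed Hspa1a and Hspa1b level was KIKO replicate 3, KIKO replicate 1, WT replicate 1, WT replicate 2 and KIKO replicate 2. Of the 24 immediate-early genes, which respond quickly to stimulation and to handling, 12 had exactly this order, among them Fos, Egr1, Junb, Atf3 and Nr4a1, against 3.3% of all genes tested. This comparison was chosen after the values were seen. Their sum was 7193 and 8996 CPM in WT and 6106, 11092 and 5376 CPM in KIKO. The 4 choroid plexus markers (Ttr, Enpp2, Folr1, Kl) followed the same order in their sum, from 7829 to 15457 CPM in KIKO and 12737 and 13838 CPM in WT. Ttr made up most of that sum, and Enpp2 did not follow, with 2208 and 2953 counts in WT and 1955, 1806 and 1228 counts in KIKO. Nor did Folr1, with 27 and 43 counts in WT and 7, 31 and 17 counts in KIKO. The 4 oligodendrocyte markers ran from 4054 to 16932 CPM in KIKO and from 4741 to 10531 CPM in WT, highest in the same 2 libraries. The 6 microglia markers summed to 3678 and 4770 CPM in WT and 3165, 9319 and 3791 CPM in KIKO, again highest in KIKO replicate 2 and next in WT replicate 2. The neuron markers ran the other way in their sum, most of which was Meg3, at 9032 CPM in KIKO replicate 2 and between 21191 and 27407 CPM in the other 4 libraries. The remaining lists had, in WT and in KIKO, summed levels of 153 to 162 and 127 to 281 CPM for border macrophages, 790 to 1316 and 890 to 1081 CPM for granule neurons, 145 to 242 and 194 to 349 CPM for Purkinje neurons, and 163 to 252 and 209 to 293 CPM for astrocytes and Bergmann glia. Endothelium had 355 to 711 and 390 to 577 CPM, blood 1025 to 2737 and 1654 to 2915 CPM, and neutrophils 16.9 to 22.0 and 32.5 to 90.7 CPM. The mitochondrially encoded share of counts was 7.63% in WT replicate 2 and 8.77% in KIKO replicate 2, and between 3.80% and 4.32% elsewhere. The part of these measures in the levels of the members was not tested.

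**Figure D5:**
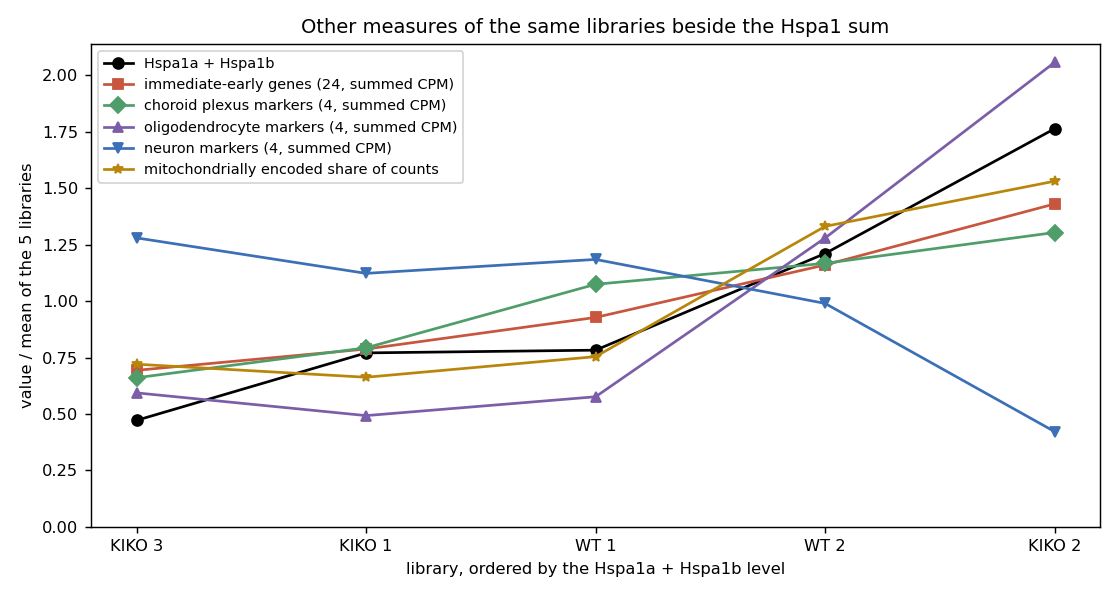
Sum of Hspa1a and Hspa1b, sums of the immediate-early, choroid plexus, oligodendrocyte and neuron lists, and the mitochondrially encoded share of counts, each divided by its mean over the 5 libraries, which are ordered by the Hspa1 sum. The neuron line falls in KIKO replicate 2, where the other lines are highest.

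Fosb, an immediate-early transcription factor, was the only one of the 24 immediate-early genes past the same cut-offs, which 1.2% of all genes tested passed. It had 299.8 and 295.0 CPM in WT and 161.7, 161.5 and 119.7 CPM in KIKO, and the groups did not overlap, as for 16.7% of all genes tested. Its log2 fold change was −1.01 (SE 0.35, 95% interval −1.80 to −0.21), with an adjusted p of 1 by edgeR's quasi-likelihood test. The size was between −1.08 and −0.88 under every alternative, but the call was lost with any 1 library other than KIKO replicate 2 left out, and also in the blocked fit on replicate number. The list had 13 of 24 positive, with a median of 0.039. Without KIKO replicate 2 it had 3 of 23 positive and a median of −0.544, and 11 had an unadjusted p below 0.05, against 8.21% of all genes in that fit. Of the 23, 3 passed both cut-offs, against 6.45% of all genes, and were lower in KIKO, namely Fosb (−1.08), Nr4a1 (−0.93) and Egr1 (−0.80). Over all genes 50.9% were lower. The part of this list in the values of Hspa1a, Hspa1b and Hspd1 in the same fit was not tested.

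The wider chaperone network was read in 8 lists that hold 161 genes with the members included, of which 147 were tested. None passed the cut-offs in either direction by edgeR, beside 1.2% of all genes tested. DESeq2 called 2 of 158, Pih1d1 and Clpx, beside 1.03% of all genes in that fit. Among cytosolic heat shock proteins and heat shock factors, 10 of 21 tested genes had a positive log2 fold change, with a median of −0.107. The J-domain proteins had 13 of 23 positive (median 0.065), the exchange factors and other HSP70 partners 7 of 13 (median 0.094) and the HSP90 co-chaperones 9 of 21 (median −0.10). The chaperonin TRiC and prefoldin, which fold actin and tubulin, had 9 of 13 positive (median 0.19). The chaperones and folding enzymes of the endoplasmic reticulum had 8 of 24 positive (median −0.169), the unfolded protein response 4 of 14 (median −0.065) and the mitochondrial chaperones and proteases 11 of 22 (median −0.014). Over all genes tested, 5648 of 10889 were positive. Without KIKO replicate 2, where 50.9% of all genes were lower and their median was −0.011, the cytosolic list had 7 of 19 positive (median −0.17), the J-domain proteins 11 of 22 (median −0.028), the HSP70 partners 7 of 12 (median 0.154) and the HSP90 co-chaperones 12 of 21 (median 0.073). TRiC and prefoldin had 6 of 13 positive (median −0.022), the endoplasmic reticulum list 8 of 24 (median −0.194), the unfolded protein response 5 of 14 (median −0.185) and the mitochondrial list 6 of 22 (median −0.283). Of all genes in that fit 6.45% passed both cut-offs, and in the 8 lists these included Bag3 (−0.77) and Ppp1r15a (−1.05), which were lower, and Pih1d1 (1.82), which was higher.

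Among the partners of the inducible HSP70, 3 abundant genes were lowest in KIKO replicate 3, while the means of their lists were not. In that library the HSP70 partners lay on average 0.127, and the J-domain proteins 0.089, above their own means on the log2 scale. Dnajc5, an abundant J-domain gene, was highest there, at 209.0 CPM. Hsph1, an HSP110 that exchanges the nucleotide of HSP70, had 661.4 and 1134 CPM in WT and 629.3, 928.8 and 576.4 CPM in KIKO. Bag3, which links HSP70 to autophagy, had 204.2 and 456.6 CPM in WT and 235.0, 251.1 and 153.2 CPM in KIKO, a log2 fold change of −0.63 (SE 0.45) with an interval from −1.66 to 0.40. Dnaja1, another J-domain partner, had 417.4 and 639.4 CPM in WT and 422.7, 738.0 and 280.1 CPM in KIKO. In each, WT replicate 2 was above WT replicate 1, as it was for the inducible pair. Hspa4l, an HSP110 relative, did not overlap between genotypes, with 204.2 and 228.3 CPM in WT and 268.9, 343.9 and 255.7 CPM in KIKO, and a log2 fold change of 0.42 (95% interval −0.40 to 1.24). Of all genes tested, 16.7% did not overlap.

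Of the 21 HSP90 co-chaperones, 11 were lowest and 6 highest in KIKO replicate 2, beside 37.1% and 33.9% of all genes tested. The 3 with the highest means were all lowest there. Cdc37l1, a relative of the kinase co-chaperone CDC37, was at 269.7 CPM there and between 496.8 and 576.4 CPM in the other 4 libraries. Chordc1 was at 101.2 CPM there and between 158.3 and 229.1 CPM elsewhere, and Fkbp4, the immunophilin of steroid receptor complexes, was at 78.0 CPM there and between 128.9 and 158.5 CPM elsewhere. Fkbp5, another immunophilin, named after its values were seen, went the other way, at 90.4 CPM in KIKO replicate 2 and at most 46.3 CPM elsewhere. Cct7, a TRiC subunit, had 177.3 and 181.3 CPM in WT and 145.1, 151.5 and 124.8 CPM in KIKO without overlap. Fkbp4 did not overlap between genotypes either, beside 16.7% of all genes tested, while Cct8 and the prefoldin subunit Pfdn5 overlapped.

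In the endoplasmic reticulum, Hsp90b1, the HSP90 of that compartment, had 482.1 and 642.4 CPM in WT and 490.5, 435.8 and 398.8 CPM in KIKO, a log2 fold change of −0.35 (95% interval −1.19 to 0.49). Calr, a lectin chaperone, was at −0.19 and Atf4, the transcription factor of the integrated stress response, at −0.04. Herpud1, which acts in the degradation of misfolded proteins, was at −0.04. Its partner Sel1l did not overlap between genotypes, beside 16.7% of all genes tested, with 178.3 and 163.1 CPM in WT and 214.5, 244.2 and 260.8 CPM in KIKO. The log2 fold change of Sel1l was 0.49 (95% interval −0.30 to 1.28). Yme1l1, a protease of the inner mitochondrial membrane, was at 37.1 CPM in KIKO replicate 2 and between 106.9 and 117.5 CPM in the other libraries. Most of its list went the other way. Of the 22 mitochondrial chaperones and proteases tested, 14 were highest and 3 lowest in KIKO replicate 2, beside 33.9% and 37.1% of all genes tested. Dnajc5, the synaptic vesicle J-domain protein, overlapped between genotypes at a log2 fold change of 0.08.

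The genes whose pattern over the 5 libraries was nearest to the mean of the 10 members were Usp46, Cd83, Anapc4, Rnf11 and Trps1, out of 3991 other genes with a mean of at least 50 CPM. Likeness was the root mean square difference of log2 CPM centred on each gene's mean. It ran from 0.0497 for Usp46 to 0.0764 for Trps1, against 0.138 for Dnajb1, the nearest member itself, and 0.515 for Hspa1b, the farthest. Cd83, a surface protein of activated immune cells, had 629.5 and 784.2 CPM in WT and 586.0, 827.6 and 507.4 CPM in KIKO, and so was highest and lowest in the same libraries as Hspa1a.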

How the data were processed

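The authors trimmed reads, aligned them to mm10 with HISAT2, counted reads per gene with featureCounts and deposited whole-number counts. The deposited table of log2 values holds log2(count / DESeq2 size factor + 1), a formula that returned 100% of the counts within 0.01. Columns were matched to samples by name, and 2 further columns in each table, named for KIKO with butyrate, match no sample label and were not used. The design assumed every WT sample would have a column, so the comparison became 2 against 3. GENCODE M21 (GRCm38) named 30934 of 31053 identifiers, and sequences came from RefSeq (GRCm38.p6). In R 4.3.3, edgeR 4.0.16 tested KIKO against WT two-sided on the counts by glmQLFit and glmQLFTest, after filterByExpr (minimum count 10, minimum total 15) and TMM scaling, with Benjamini-Hochberg adjustment over 10889 genes. DESeq2 1.42.0, limma 3.58.1 and other settings were alternatives. The script was tested on simulated data. Some results are not reported here. The members and lists were chosen with earlier results of these data known. Genes named besides the members were those of each list past the thresholds, or otherwise the 3 with the highest mean, and the 5 nearest in pattern. The lists were 8 of chaperones, 1 of immediate-early genes and 11 of cell type markers.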

Additional observations from a re-analysis of the deposited data

How the results depend on the processing

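No member passed the cut-offs under any of the 14 alternatives. Of 140 member values under them, 16 reversed sign. The sum of Hspa1a and Hspa1b, at 0.01 in log2 fold change, went to −0.006 with all genes of at least 1 count, −0.165 with limma on the deposited log2 values and −0.601 with voom sample weights, and ran from −0.688 to 0.344 when each library was left out in turn, lowest without KIKO replicate 2. Hspa1b reversed to −0.124 (limma) and −0.638 (voom), and Hspe1 to −0.159 (voom). Leaving out each library gave −0.676 to 0.233 for Hspa1a, −0.704 to 0.548 for Hspa1b, −0.308 to 0.077 for Hspa9, −0.85 to 0.184 for Hspd1, −0.306 to 0.406 for Hspe1 and −0.593 to 0.201 for Dnajb1. A lone WT library was then assumed to vary like the KIKO group. The cause was not tested. Of the chaperone lists, DESeq2 called 2 genes, the looser filter 3, the likelihood ratio test 1, limma 1 and voom 1, and leaving out a library 0 to 4. The count over all genes, 131, became 383 with the looser filter, 211 with the likelihood ratio test, 519 with voom and 56 to 669 with a library left out.

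The replicate numbers come from the titles and nothing else pairs the mice. With the mean of each genotype removed, same-numbered libraries correlated at r = 0.158 and 0.205 over only 2 pairs. The deviations of the WT libraries then mirror each other, so these values are not independent and cannot show pairing. With the replicate number as a block, which leaves 1 residual degree of freedom, Hspa1a was at 0.125 and Hspa9 at 0.076, the chaperone lists had 4 calls and all genes 271, and no member was called. Levels under 3 counts were not read. The positions of list genes in KIKO replicate 2 and the comparison of spans with genes of like level were chosen after seeing the data.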

Other observations

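Cryab, a small heat shock protein abundant in oligodendrocytes, had 165.4 and 270.0 CPM in WT and 142.0, 699.3 and 133.9 CPM in KIKO. It followed the library order of the summed Hspa1a and Hspa1b level, and its log2 fold change was 0.58 (95% interval −1.12 to 2.27). Hspb1, another small heat shock protein, had 498.1 and 779.7 CPM in WT and 535.5, 953.6 and 444.5 CPM in KIKO, a log2 fold change of 0.01. Both were highest in KIKO replicate 2 and lowest in KIKO replicate 3. They were chosen after their values were seen. Clpx, the ATPase of a mitochondrial protease, had at most 25 counts in 4 libraries and 85 in KIKO replicate 2. Dnajc21, a J-domain protein of ribosome assembly, had 15 counts in KIKO replicate 2 and between 85 and 161 in the others.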
